A study of Mus musculus with 2 samples.

Results

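The low density lipoprotein receptor family was followed as 9 named genes in single cells of mouse periosteum, the tissue layer that covers bone. The members were chosen by name and not by a cut on their level, but with earlier results of these data known. They are 8 receptors, Lrp1, Vldlr, Lrp4, Lrp5, Lrp6, Lrp8, Lrp10, and Lrp12, and the chaperone Lrpap1, out of 32288 features in the deposited matrices and 22796 genes with at least 1 transcript in the cells kept. All 9 members had transcripts in both libraries, and all 9 passed the filter on low counts, so none was left out of the tests. The 2 libraries are labelled as replicates of 1 condition, wild-type (WT) C57BL6 mice that were 4 weeks old, and no treatment or reporter allele is named. Periosteum was peeled from femurs and tibias, digested with collagenase, and sorted on CD45, CD31, Ter-119, and DAPI, and cells negative for the lineage markers were collected. How many mice each library pooled is not given in the sources used here. The study asked in these libraries whether Lrp1 marks periosteal skeletal stem cells (P-SSCs) of the mouse. Here the question was which stromal and blood cell types carry each member and how Lrp1 compares with its relatives.

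Receptors of this family are membrane proteins whose extracellular repeats bind lipoproteins, proteases with their inhibitors, and matrix proteins, and most of them carry their ligand into the cell by endocytosis. Lrp1 is a large scavenging and signaling receptor with many ligands, α2-macroglobulin among them, while Lrp5 and Lrp6 are the coreceptors of Frizzled in canonical Wnt signaling and Lrp4 binds agrin and the Wnt inhibitor sclerostin. Lrpap1 encodes the receptor-associated protein, which holds newly made receptors free of ligand until they leave the endoplasmic reticulum, and in bone the family is best known for mutations of LRP5 that change bone mass.

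Mouse Lrp1 is encoded on the minus strand at chr10:127538161-127621148 (mm10), and its longest annotated transcript spans 89 exons and 14.888 kb. That of Lrpap1, on the minus strand at chr5:35091501-35105766, is 2.981 kb long with 8 exons. The other transcripts range from 4.228 kb for Lrp10 to 9.368 kb for Lrp6. The promoters of Lrp1 and Lrpap1 are shown because no other member followed Lrp1 more closely across the cell classes than its chaperone did, and that of Lrp8 because its levels did not follow those of Lrp1. RefSeq sequences on GRCm38.p6 were found for 5 of the 9 members (Lrp1, Vldlr, Lrp8, Lrp10, and Lrpap1). Each line gives the 250 bases before the RefSeq start (for Lrp8 the first of 3), 5′ to 3′ in the direction of transcription, with capitals for the GC box GGGCGG on either strand. The Lrp1 stretch is the minus strand of chr10:127621149-127621398, the Lrpap1 stretch the minus strand of chr5:35105700-35105949, and the Lrp8 stretch the plus strand of chr4:107802635-107802884. RefSeq and GENCODE starts differ, so that the Lrpap1 stretch overlaps the 5′ end of the GENCODE gene and the Lrp8 stretch lies inside its GENCODE gene, which starts at position 107802261.
Lrp1: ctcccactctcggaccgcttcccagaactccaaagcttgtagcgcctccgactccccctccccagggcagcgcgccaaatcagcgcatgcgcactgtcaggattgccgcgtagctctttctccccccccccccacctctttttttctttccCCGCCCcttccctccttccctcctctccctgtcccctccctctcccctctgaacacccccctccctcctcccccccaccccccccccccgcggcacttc
Lrpap1: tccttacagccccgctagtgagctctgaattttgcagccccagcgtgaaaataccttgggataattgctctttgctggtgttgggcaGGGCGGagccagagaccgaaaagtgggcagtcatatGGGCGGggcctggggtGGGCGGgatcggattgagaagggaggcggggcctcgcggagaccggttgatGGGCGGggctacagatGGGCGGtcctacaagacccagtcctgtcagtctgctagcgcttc
Lrp8: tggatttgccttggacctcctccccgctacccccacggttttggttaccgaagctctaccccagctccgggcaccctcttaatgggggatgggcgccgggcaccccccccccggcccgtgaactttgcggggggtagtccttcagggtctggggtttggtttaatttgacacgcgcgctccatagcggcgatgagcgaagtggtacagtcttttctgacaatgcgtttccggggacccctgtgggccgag
The Lrp1 stretch held 1 GC box and the Lrpap1 stretch 5, whereas those of Lrp8, Vldlr, and Lrp10 held none. Of all 32851 promoters of this length, 32.7% held the motif. The letters TATAAA (in 12.4% of all) and CCAAT (in 33.8%), searched on both strands, were in none of the 5. The GC content was 67.2% for Lrp1, 60.8% for Lrpap1, 62.4% for Lrp8, 55.6% for Lrp10, and 41.6% for Vldlr, beside a median of 52.4% over all promoters. These matches describe letters in a window and were not tied to any level.

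The filters left 6276 cells in library 1 and 2893 in library 2, with 92058894 and 30745895 unique molecular identifiers (UMIs, each counting 1 captured transcript) and medians of 8164 and 6279 UMIs per cell. The libraries shared 8 cell barcodes, 7 of them among the kept cells. The reads went against the WT label, because transcripts of fluorescent reporter genes were counted. EGFP had 6837 UMIs in 170 cells of library 2 and none in library 1. It stood in library 2 at 666 CPM (a gene's UMIs relative to all UMIs of the class and library) in Lepr+ stromal-like, 303 CPM in osteoblast-like, 216 CPM in chondrocyte-like, and 11.3 CPM in P-SSC-like cells. These classes held 237, 989, 799, and 31 of its 6837 UMIs. An unnamed stromal cluster led by Col10a1 and Mgp had EGFP among its leading genes, at a level not given here. The tdTomato feature had 1482 UMIs in library 1 and 4627 in library 2, reaching 19.0 and 538 CPM in P-SSC-like cells, compared with 37.1 and 59.5 CPM in B cell-like cells. The strains listed in the study's methods include Prx1CreER-GFP and Rosa26 tdTomato mice, but the sources used here tie neither to a library, so genotype and library cannot be told apart, and levels are given for each library on its own. Xist and the Y-linked gene Ddx3y were both read in each library, so each held cells of both sexes. Cell classes were rebuilt by clustering without the members and named by marker genes, so each is called "-like". Although cells positive for CD45 and Ter-119 had been sorted against, 5765 and 1759 cells fell into blood clusters and 430 and 1084 into stromal and muscle clusters. Of these, 1195 and 347 in blood and 97 and 147 in stroma stayed unnamed. Levels of the unnamed blood cells are not given here, so the named blood classes do not cover all blood cells. Every listed marker of the tested classes was at least 1 log2 unit higher in its class than in all other kept cells. The clusters had been named by these markers at the same cut, so this is no separate check of the names. In single libraries, 2 classes went against their names. Of the 18 tenocyte-like cells of library 1, 2 carried at least 3 of the 8 tenocyte markers, compared with 159 of 190 in library 2 (83.7%). Of the 44 Lepr+ stromal-like cells of library 2, 25 carried at least 3 of 10 markers (56.8%), compared with 82 of 89 in library 1 (92.1%). In the other tested classes of stroma and blood, 76.4% to 100% of the cells did so. Blood markers (77 genes) were also read in stromal classes, at a summed level of 20431 CPM in the 20 P-SSC-like cells of library 1 and 4784 CPM in the 291 of library 2, and at 504 to 23142 CPM in the others. Stromal markers (100 genes) summed to 426 to 1620 CPM in blood classes. Their part in the levels of the members was not tested.

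Lrp1 was highest in P-SSC-like cells, which are defined here by Pdgfra, Ly6a, Cd34, Pi16, and other fibroblast and stem cell markers. Its level there was 585 CPM in library 1 (95% Poisson interval 496 to 685, from 154 UMIs) and 793 CPM in library 2 (760 to 827, from 2183 UMIs). In Lepr+ stromal-like cells, named by markers of the perivascular stroma that makes Cxcl12, Lrp1 stood at 294 and 357 CPM in libraries 1 and 2. Those of library 2 bore the name less well, with a median of 3 of 10 class markers per cell against 9 in library 1. They also had Mmp9, listed here as an osteoclast marker, at 4774 CPM. Both libraries thus placed P-SSC-like cells above Lepr+ stromal-like cells, by 1.99-fold (1.61 to 2.47) and 2.22-fold (1.86 to 2.68), and the counting intervals of the levels did not overlap. Tenocyte-like cells, named by markers of tendon and ligament, had 111 CPM in library 1, where few of them carried tenocyte markers, and 426 CPM in library 2. One cluster of this class, led by Msmp, Cytl1, and Prg4, met 3 of 8 tenocyte markers. It held 0 cells of library 1 and 78 of library 2, so the class had another makeup in each library. Chondrocyte-like cells had 131 and 152 CPM, and osteoblast-like cells had 112 and 113 CPM. In library 1 the counting intervals of chondrocyte-like, osteoblast-like, and tenocyte-like cells overlapped. In library 2 those of tenocyte-like and Lepr+ stromal-like cells overlapped, and chondrocyte-like cells were above osteoblast-like cells. No Lrp1 UMI was read in skeletal muscle-like cells of either library, which at their depth allows up to 15.0 and 10.9 CPM. Intervals in single libraries cover counting error only.

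In blood, Lrp1 was found in the monocyte/macrophage-like class at 90.2 CPM in library 1 and 70.7 CPM in library 2, below the 112 and 113 CPM of osteoblast-like cells (0.804-fold, 0.681 to 0.948, and 0.627-fold, 0.471 to 0.822). Neutrophil-like cells had 4.44 and 3.77 CPM, B cell-like cells 0.575 and 1.11 CPM, and erythroid-like cells 0.374 and 5.31 CPM. The last value rests on 10 UMIs. A level of free stromal RNA scaled by Col1a1, a collagen gene that blood cells should lack, would give 0.120 and 0.423 CPM of Lrp1 in monocyte/macrophage-like cells and 0.388 CPM in the erythroid-like cells of library 2. This estimate takes free RNA to have the makeup of the summed stromal cells, and other sources were not tested. Monocyte/macrophage-like cells were above the B cell-like class by 157-fold (66.4 to 486) and 63.7-fold (25.9 to 203). They were above neutrophil-like cells by 20.3-fold (15.6 to 26.6) and 18.7-fold (9.26 to 42.9).

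**Figure D1:**
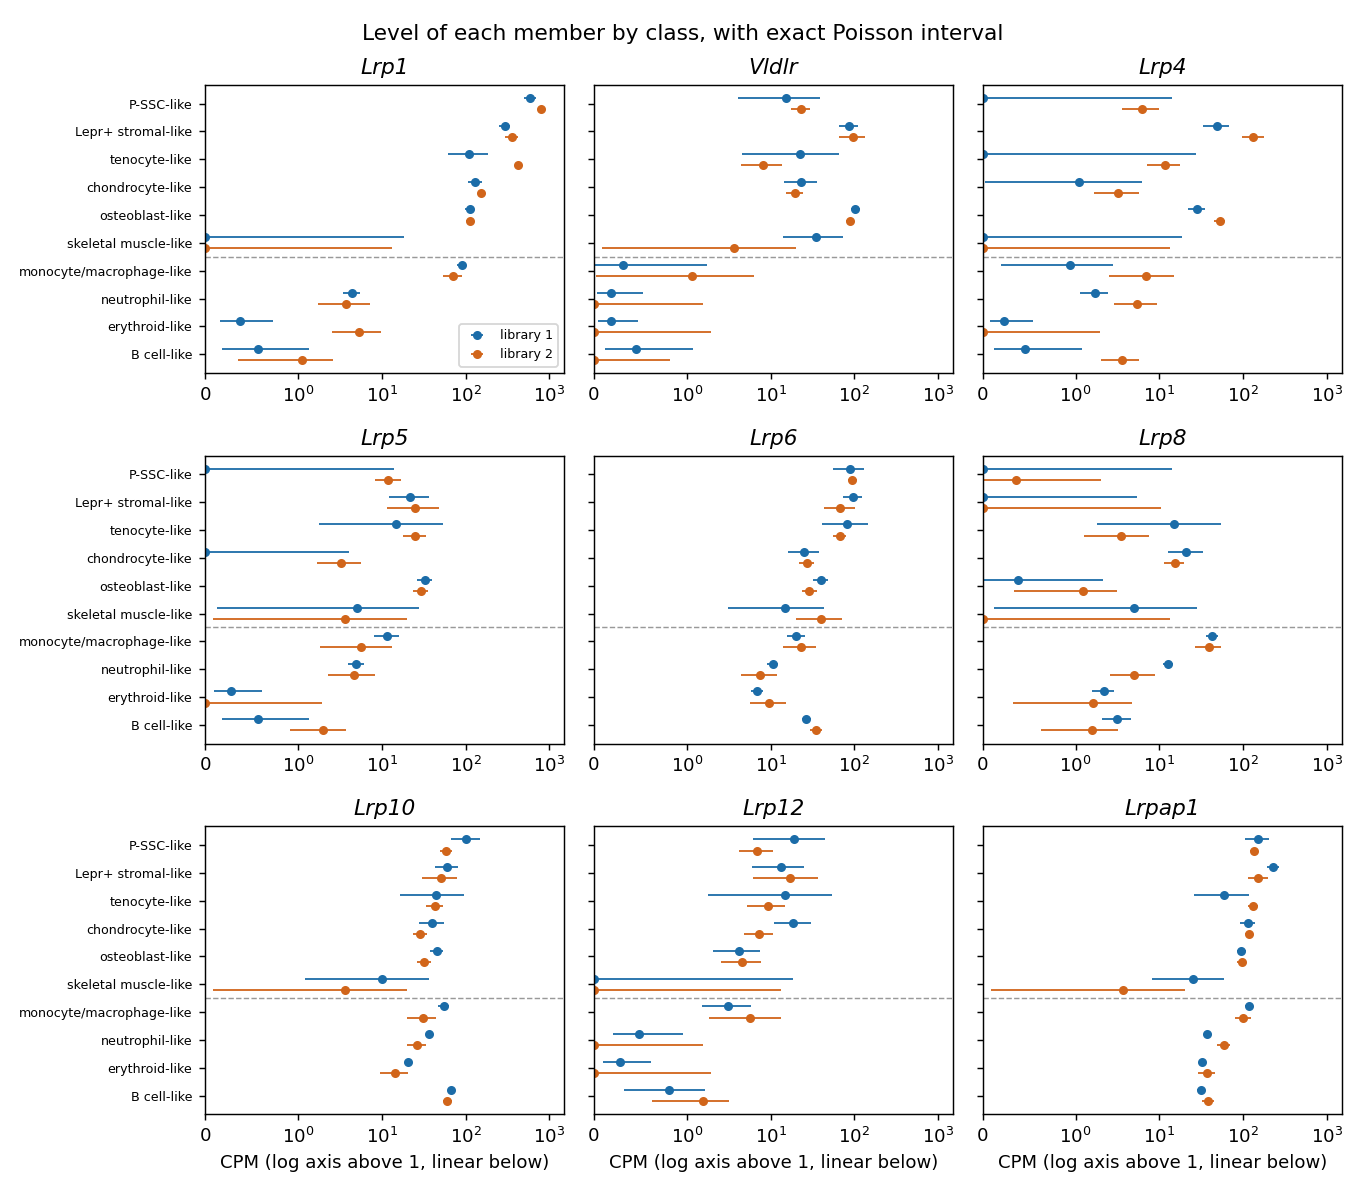
Level of each member in CPM (log axis above 1, linear below) in 10 classes, stromal and muscle above the dashed line and blood below it. Points are the summed UMIs of 1 library and bars the exact 95% Poisson interval. Lrp1 was farthest to the right in P-SSC-like cells in both libraries, Vldlr lay near 0 in all 4 blood classes, and Lrp8 was highest in monocyte/macrophage-like cells.

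The share of cells with a Lrp1 UMI did not always follow the levels. It was 100% and 96.2% in P-SSC-like cells (median depths of 12388 and 9202 UMIs), 75.3% and 79.5% in Lepr+ stromal-like cells. Osteoblast-like cells had 79.0% and 68.4%. Of the tenocyte-like cells, 4 of 18 in library 1 and 165 of 190 in library 2 had a Lrp1 UMI. The B cell-like class, taken as background, gave 0.246% and 0.373% at medians of 3388 and 3582.5 UMIs. Chondrocyte-like cells reached 100% and 95.0%, but at medians of 34081 and 30361 UMIs. When every cell was thinned to 1000 UMIs, P-SSC-like cells kept shares of 44.7% and 52.4% and Lepr+ stromal-like cells 24.5% and 33.5%, while chondrocyte-like cells had 13.6% and 15.2% and osteoblast-like cells 11.3% and 13.2%. Among these classes, thinning thus left P-SSC-like cells on top in both libraries and removed the near-complete detection in chondrocyte-like cells. Thinned shares of tenocyte-like cells are not given here. Monocyte/macrophage-like cells had a thinned share of 11.5% and 8.91%, and B cell-like cells 0.0824% and 0.150%.

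P-SSC-like cells fell into 2 clusters, one led by Pi16 and Mfap5 and the other by Mfap4 and Apod. Lrp1 was at 521 CPM in the Pi16 cluster and 884 CPM in the Mfap4 cluster of library 1, which held 16 and 4 cells, a ratio of 1.70 (1.16 to 2.44). In library 2, with 183 and 108 cells, the levels were 778 and 828 CPM. The ratio there was 1.06 (0.972 to 1.16), so the clusters differed in Lrp1 beyond counting error in library 1 and not in library 2. Lrp6 was higher in the Mfap4 cluster in both libraries. It stood at 194 against 64.6 CPM in library 1 (interval of the ratio 1.15 to 7.45, from 9 and 14 UMIs). In library 2 it stood at 135 against 76.2 CPM (1.37 to 2.27). Lrp5 was higher in the Mfap4 cluster of library 2 (2.63, 1.25 to 5.61) and had no UMI in P-SSC-like cells of library 1. Where the other members had a ratio, its interval included 1. Among the 291 P-SSC-like cells of library 2, 280 had a Lrp1 UMI, and 186 of these 280 also had Anpep, which encodes CD13, the second surface marker of the study (66.4%). Of the 11 cells without Lrp1, 5 had Anpep (45.5%), and this difference was not tested. In the same 280 cells, Lrpap1 was found in 190 (67.9%) and the Wnt coreceptor gene Lrp6 in 151 (53.9%). All 20 P-SSC-like cells of library 1 had Lrp1, 14 of them with Anpep, 15 with Lrpap1, and 12 with Lrp6. Anpep itself was at 118 and 157 CPM in P-SSC-like cells and at most 23.6 CPM in any other tested stromal class.

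Set beside its relatives, Lrp1 held the largest part of the receptor transcripts in P-SSC-like cells. Of the UMIs of the 8 receptors, 72.3% and 79.7% were Lrp1 there, 47.5% and 47.9% in Lepr+ stromal-like cells. For osteoblast-like cells the part was 30.8% and 32.2%. B cell-like cells had another makeup, with 0.573% and 1.05% Lrp1, 67.5% and 57.6% Lrp10, and 26.6% and 33.1% Lrp6. Tenocyte-like cells differed most between the libraries, with 36.6% Lrp1 in library 1 and 71.8% in library 2. The kit captures transcripts at the 3′ end, so levels in CPM were compared between genes, and dividing by transcript length was tried as a second scale. On the CPM scale Lrp1 ranked 1 among the 9 members in each of the 5 bone and tendon stromal classes in both libraries. These ranks were not set against counting error. In library 1 the next member was close in osteoblast-like cells (112 against 102 CPM of Vldlr) and chondrocyte-like cells (131 against 113 CPM of Lrpap1). In the 18 tenocyte-like cells of that library, Lrp1 stood at 111 CPM against 81.6 CPM of Lrp6. Per kb of transcript it ranked 2, behind Lrpap1, in P-SSC-like cells of library 1 (39.3 against 49.7 CPM per kb) and 1 in library 2 (53.3 against 45.2 CPM per kb). In osteoblast-like cells it ranked 4 per kb in both libraries, so it ranked 1 there on the CPM scale only. In Lepr+ stromal-like, chondrocyte-like, and tenocyte-like cells its rank per kb was 2 to 4.

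**Figure D2:**
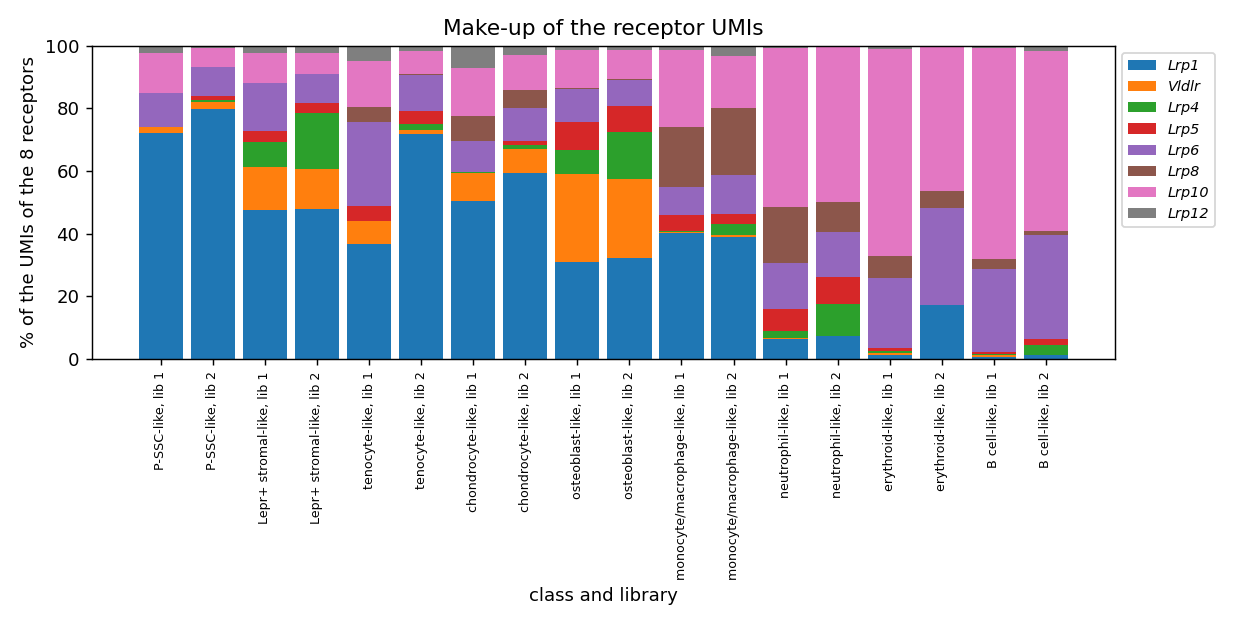
Makeup of the UMIs of the 8 receptors in percent (vertical axis) for 9 classes and 2 libraries (horizontal axis). Lrp1 filled 72.3% and 79.7% of the P-SSC-like bars and 0.573% and 1.05% of the B cell-like bars, where Lrp10 and Lrp6 made up most. Skeletal muscle-like cells are not drawn.

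UMIs were then summed per library and class, and the 5 stromal classes were compared with the 4 blood classes in a single model (n = 2 libraries per class). Of the 9 members, 7 were higher in stroma and 1 was lower by edgeR's quasi-likelihood test. The Benjamini-Hochberg adjustment covered the 13604 genes tested. In this comparison 59.7% of all genes tested passed in either direction, so that passing by itself says little about the family. Lrp1 was higher in stroma by 5.39 ± 0.46 on the log2 scale (SE, edgeR adjusted p = 5.66e-08). Vldlr, which takes up triglyceride-rich lipoproteins and, with Lrp8, binds reelin, was higher by 6.52 ± 0.46 (edgeR adjusted p = 3.86e-10). Its blood levels were at most 1.14 CPM, from 0 to 4 UMIs per class and library, so the size of this difference depends on the handling of counts near 0. The median log2 difference of the members was 2.36 and that of all genes tested 0.00. Both libraries taken alone gave the same direction for the 8 members.

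**Figure D3:**
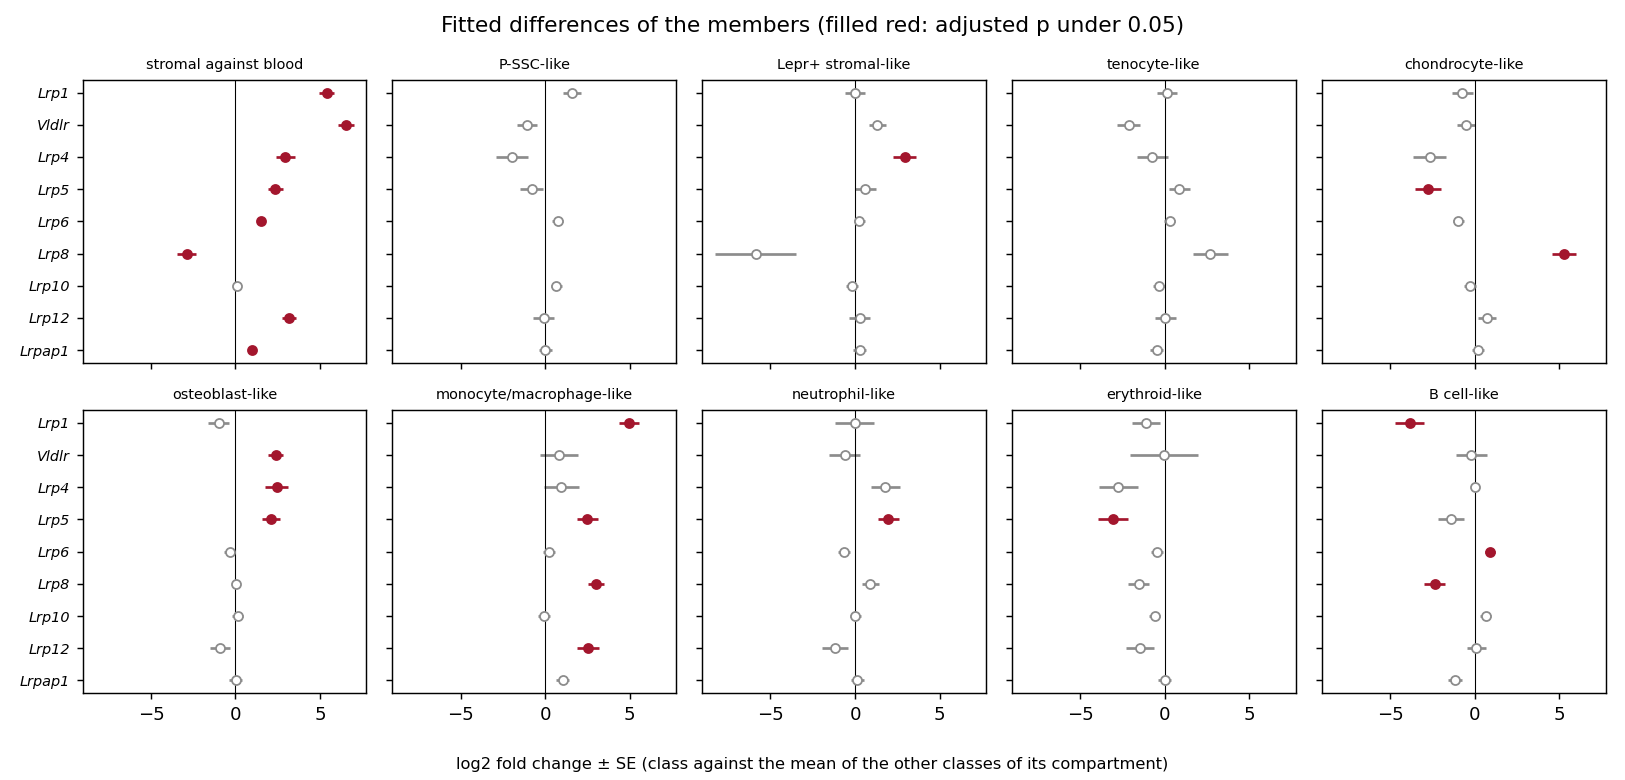
Fitted log2 fold change ± SE of each member (horizontal axes) in 10 comparisons, stromal against blood classes first and then each class against the mean of the other classes of its compartment. SE is the size of the fold change over the square root of the test's F value, so it shrinks with the fold change. Short bars near 0, such as Lrp8 in osteoblast-like cells (0.0037 ± 0.011), therefore do not show precision. Filled red points have an edgeR adjusted p under 0.05, 8 of 9 members in the first panel. Lrp8 in P-SSC-like cells could not be fitted with a useful error and is not drawn.

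Each stromal class was next set against the mean of the other 4. In P-SSC-like cells, where 9.03% of all genes passed, 0 of the 9 members passed in edgeR's quasi-likelihood test. At an unadjusted p under 0.05 there were 2, Lrp1 and Lrp6, and DESeq2 called 1 (Lrp6, adjusted p = 0.0286). Lrp1 was higher there by 1.59 ± 0.53 on the log2 scale (unadjusted p = 0.00884, edgeR adjusted p = 0.0802). With the library as a block, which pairs the sums of each library, the difference was 1.57 ± 0.43 and passed (edgeR adjusted p = 0.0240). Without the tenocyte-like class it was 1.76 ± 0.47 (edgeR adjusted p = 0.0219), and without the Lepr+ stromal-like class 1.69 ± 0.57 (edgeR adjusted p = 0.0759). The Lrp1 call of P-SSC-like cells within stroma therefore turned on the setting, while its direction did not. Over all alternatives the adjusted p ran from 0.00134 to 0.0870. For comparison, Anpep was higher in P-SSC-like cells by 4.59 ± 0.72 (edgeR adjusted p = 0.00068) and Prrx1, a transcription factor gene of limb mesenchyme, by 2.36 ± 0.58 (edgeR adjusted p = 0.0124), both in the same fit, whereas Col1a1 was at −0.15 ± 0.91 (edgeR adjusted p = 1.00).

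Vldlr, Lrp4, and Lrp5 were higher in osteoblast-like cells than in the mean of the other stromal classes. Vldlr stood at 102 and 88.6 CPM in osteoblast-like cells and 85.1 and 95.5 CPM in Lepr+ stromal-like cells, against 15.2 and 22.9 CPM in P-SSC-like cells. The ratio of osteoblast-like to P-SSC-like cells was 6.73-fold (2.60 to 24.9) and 3.87-fold (2.94 to 5.16), and the counting intervals of the 2 highest classes overlapped each other in both libraries. In osteoblast-like cells, where 8.52% of all genes passed, 3 members rose by edgeR's quasi-likelihood test. Vldlr was higher by 2.38 ± 0.45 (edgeR adjusted p = 0.00178), Lrp4 by 2.44 ± 0.67 (edgeR adjusted p = 0.0285), and Lrp5 by 2.07 ± 0.53 (edgeR adjusted p = 0.0176). All 3 passed also without the Lepr+ stromal-like class, with edgeR adjusted p of 0.000691, 0.00534, and 0.0114. The fitted sizes for Lrp4 and Lrp5 depend on the handling of counts near 0, as P-SSC-like cells of library 1 had no UMI of either. For Lrp5, the counting intervals of osteoblast-like and Lepr+ stromal-like cells overlapped in both libraries. Lrp4 missed the threshold in osteoblast-like cells with DESeq2 (adjusted p = 0.0552) and at a clustering resolution of 0.4 (edgeR adjusted p = 0.0520).

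Lrp4, the receptor for agrin and sclerostin, was highest in Lepr+ stromal-like cells, with 48.4 CPM in library 1 and 132 CPM in library 2. Osteoblast-like cells followed with 28.1 and 52.4 CPM, and P-SSC-like cells had 0 and 6.18 CPM. The higher Lepr+ value came from the library whose Lepr+ stromal-like cells carried fewer of the class markers. Lepr+ stromal-like cells exceeded osteoblast-like cells by 1.73-fold (1.11 to 2.64) and 2.52-fold (1.78 to 3.50). In Lepr+ stromal-like cells, where 5.84% of all genes passed, Lrp4 was the only member called by edgeR. It was higher by 2.94 ± 0.69 (edgeR adjusted p = 0.0145), and it passed in each alternative that gave a test. At the higher clustering resolution, without integration, and with the listed genes allowed, the class held 8, 5, and 9 cells in library 2. Library 1 then held 64, 76, and 64. These clusterings fell under the minimum of 10 cells and gave no test. The Lrp4 call was thus tested only where the class kept more cells of library 2. DESeq2 also called Vldlr in Lepr+ stromal-like cells (1.46, adjusted p = 0.00624, against 0.134 by edgeR). With the library as a block, Lrp4 was also lower in P-SSC-like cells, by −2.23 (edgeR adjusted p = 0.0234, against 0.258 without the block).

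Lrp5 and Lrp6, the paired Wnt coreceptors, were not alike in their distribution. Lrp5 was at 32.6 and 29.1 CPM in osteoblast-like cells, 22.02 and 25.3 CPM in Lepr+ stromal-like cells, 14.8 and 24.8 CPM in tenocyte-like cells, and 0 and 12.0 CPM in P-SSC-like cells. In chondrocyte-like cells, with 0 and 12 UMIs (0 and 3.24 CPM), Lrp5 was lower by −2.76 ± 0.77 (edgeR adjusted p = 0.0200), a fitted size that depends on the handling of the 0. Lrp6 was at 87.4 and 94.5 CPM in P-SSC-like cells, 95.4 and 67.4 CPM in Lepr+ stromal-like cells, and 81.6 and 66.8 CPM in tenocyte-like cells, while osteoblast-like cells had 39.4 and 29.1 CPM. Both libraries gave lower Lrp6 in osteoblast-like and chondrocyte-like cells than in the 3 other classes. In library 1, however, the counting intervals of osteoblast-like and tenocyte-like cells overlapped. Lrp6 nevertheless passed in no stromal class in edgeR's fit without the block. With it, Lrp6 was lower in chondrocyte-like cells by −0.97 (edgeR adjusted p = 0.0321, against 0.0703). Stromal against blood, Lrp6 was higher by 1.52 ± 0.20 (edgeR adjusted p = 5.24e-06) and Lrp5 by 2.36 ± 0.42 (edgeR adjusted p = 7.22e-05).

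Osteoblast-like cells were made of 3 clusters, of which one was led by Dmp1 and Phex, genes of osteocytes and late osteoblasts, and another by Ifitm5. In library 2, Lrp5 was at 91.5 CPM in the Dmp1 cluster and 15.3 CPM in the Ifitm5 cluster, a ratio of 5.97 (3.61 to 10.1). The same ratio in library 1 was 1.30 (0.642 to 2.48), so the Lrp5 difference was seen in library 2 only. It was not alone there. Lrp10 (3.20, 1.98 to 5.15), Lrp1 (2.11, 1.63 to 2.73), and Lrp6 (2.01, 1.13 to 3.49) were also higher in the Dmp1 cluster of library 2. Lrpap1 was lower (0.589, 0.394 to 0.856). In library 1 the intervals of these ratios included 1. Vldlr differed the other way in both, with 58.2 CPM in the Dmp1 cluster against 121 CPM in the Ifitm5 cluster of library 1 and 53.7 against 94.9 CPM in library 2. The Ifitm5 cluster was thus 2.08-fold and 1.77-fold higher in Vldlr, beyond counting error each time. Lrp4 did not differ between these clusters beyond counting error, at 43.7 against 30.1 CPM and 67.6 against 54.8 CPM.

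Lrp8, the receptor for reelin and selenoprotein P also named ApoER2, had the pattern least like that of Lrp1. Monocyte/macrophage-like cells had 42.7 and 38.8 CPM of Lrp8, neutrophil-like cells 12.7 and 5.03 CPM, and chondrocyte-like cells 20.9 and 15.1 CPM. P-SSC-like cells had 0 and 1 UMI and Lepr+ stromal-like cells none in either library. Tenocyte-like cells had 14.8 CPM of Lrp8 in library 1, from 2 UMIs, and 3.46 CPM in library 2, from 6. In chondrocyte-like cells 15.0% of all genes passed, and Lrp8 was higher there than in the mean of the other stromal classes by 5.28 ± 0.71 (edgeR adjusted p = 5.69e-05), with osteoblast-like cells at 0.379 and 1.23 CPM. Because of these low classes the fitted size is no bound. Stromal against blood, Lrp8 was the member that was lower, by −2.88 ± 0.56 (edgeR adjusted p = 0.000217). Without the Lepr+ stromal-like class, which had no Lrp8 UMI, that difference was −1.71 ± 0.44 (edgeR adjusted p = 0.00291). In the same model Lrp8 was lower in P-SSC-like cells within stroma (−3.81 ± 1.13, edgeR adjusted p = 0.0362), a call the full model did not make.

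Lrp10 and Lrp12, family members with fewer known ligands, showed opposite breadth. Lrp10 was broad in stroma and blood, from 103 and 58.9 CPM in P-SSC-like and 67.8 and 60.6 CPM in B cell-like cells to 20.7 and 14.3 CPM in erythroid-like cells. Skeletal muscle-like cells had 2 and 1 UMIs of Lrp10. Stromal and blood classes differed in Lrp10 by 0.07 ± 0.20 on the log2 scale (edgeR adjusted p = 0.843), the only member not to pass. Lrp12 was low throughout, at 19.0 and 6.91 CPM in P-SSC-like cells, 18.7 and 7.30 CPM in chondrocyte-like cells, and 13.2 and 16.9 CPM in Lepr+ stromal-like cells. Blood classes other than monocyte/macrophage-like cells had at most 1.55 CPM of Lrp12, and stroma was higher by 3.16 ± 0.41 (edgeR adjusted p = 2.26e-06).

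Lrpap1 was broad and highest where Lrp1 was high. Its levels were 226 and 152 CPM in Lepr+ stromal-like cells, 148 and 135 CPM in P-SSC-like cells, 116 and 100 CPM in monocyte/macrophage-like cells, and 113 and 117 CPM in chondrocyte-like cells. B cell-like and erythroid-like cells, nearly without Lrp1, still had 31.3 and 38.0 CPM and 32.2 and 36.6 CPM of Lrpap1. Stroma was higher than blood by 0.99 ± 0.24 (edgeR adjusted p = 0.0016), less than the 5.39 of Lrp1. Across the 20 sums of the model, the correlation of log2(CPM + 10) with Lrp1 was 0.88 for Lrpap1, 0.85 for Lrp12, 0.77 for Lrp6, and −0.0027 for Lrp8. These describe 10 classes in 2 libraries that share depth and free RNA, and they carry no p. In P-SSC-like cells Lrp1 UMIs outnumbered those of Lrpap1 by 3.95 (2.76 to 5.77) and 5.88 (5.27 to 6.59), in osteoblast-like cells by 1.19 (1.00 to 1.41) and 1.18 (1.01 to 1.38).

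**Figure D4:**
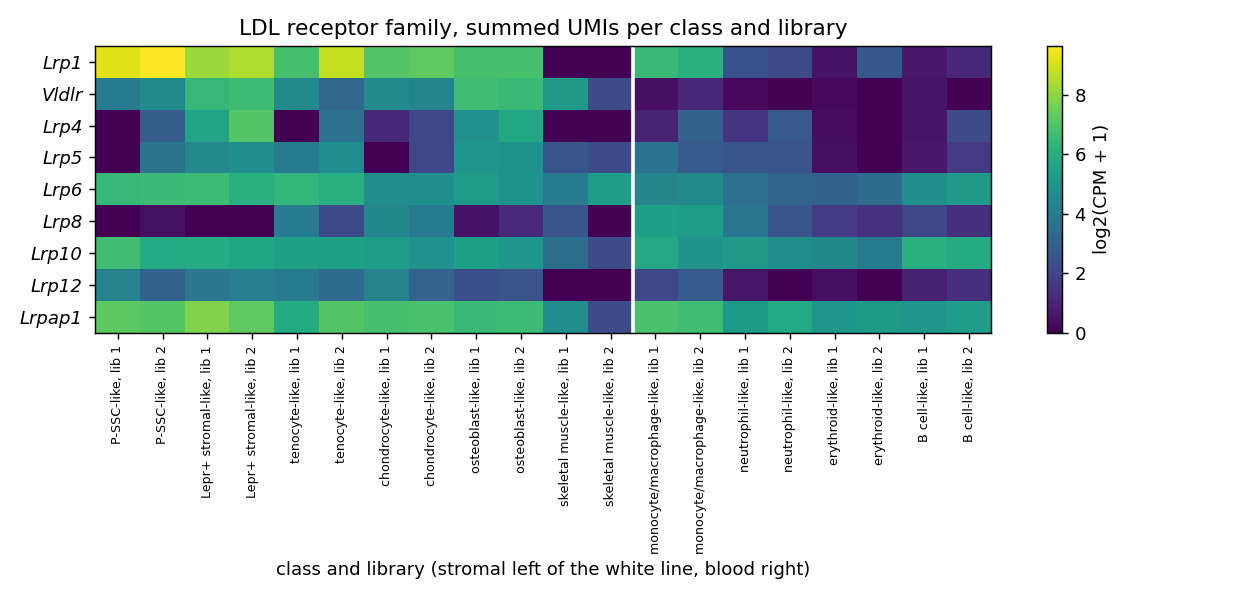
Level of the 9 members as log2(CPM + 1) (color) in 10 classes and 2 libraries (horizontal axis), stromal and muscle classes left of the white line and blood right of it. The Lrp1 row is brightest in the P-SSC-like columns (585 and 793 CPM), and the Lrpap1 row is lit in both compartments.

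Among the 4 named blood classes, which leave out the unnamed blood cells, monocyte/macrophage-like cells carried most of the members. In this comparison with the mean of the other 3 blood classes, 14.4% of all genes passed, and 4 of the 9 members rose by edgeR's quasi-likelihood test. Lrp1 was higher by 4.95 ± 0.60 (edgeR adjusted p = 3.33e-05), Lrp8 by 3.02 ± 0.48 (edgeR adjusted p = 0.00019), Lrp12 by 2.53 ± 0.68 (edgeR adjusted p = 0.0156), and Lrp5 by 2.49 ± 0.63 (edgeR adjusted p = 0.0102). Lrp5 levels behind this were 11.6 and 5.70 CPM, and the Lrp12 call was lost when the listed genes were allowed to shape the clusters (edgeR adjusted p = 0.114). Lrpap1 was higher by 1.03 ± 0.38 and missed the threshold (edgeR adjusted p = 0.0813), but passed with the library as a block (1.04, edgeR adjusted p = 0.0338).

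Within this class Lrp1 and Lrp8 were divided between its 2 clusters. Lrp1 was at 197 and 164 CPM in a cluster with Wfdc17 and Apoc2 among its leading genes, and at 45.8 and 28.2 CPM in one with F13a1, a coagulation factor gene of monocytes. The ratio was 4.31 (3.37 to 5.54) in library 1 and 5.83 (3.27 to 10.9) in library 2. Lrp8 went the other way, with 57.8 and 53.0 CPM in the F13a1 cluster against 6.43 and 7.30 CPM in the Wfdc17 cluster, or 8.98-fold and 7.26-fold higher. Both libraries agreed in these directions beyond counting error, although the lower Lrp8 values rest on 6 and 2 UMIs. The clusters were made without the members, and the difference was not tested across libraries.

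**Figure D5:**
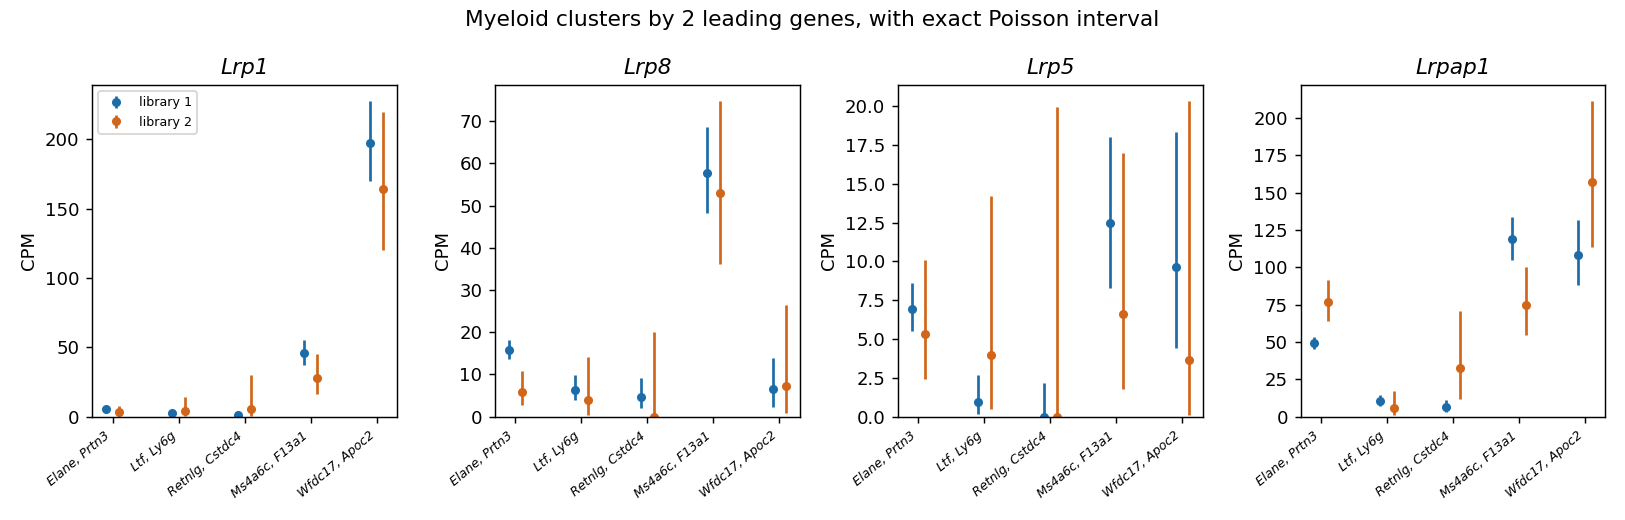
Levels of Lrp1, Lrp8, Lrp5, and Lrpap1 in CPM (vertical axes) in 5 myeloid clusters, each named by 2 of its leading genes. Bars are exact 95% Poisson intervals in 1 library. Lrp1 is highest in the cluster of Wfdc17 and Apoc2 (197 and 164 CPM) and Lrp8 in the cluster of Ms4a6c and F13a1 (57.8 and 53.0 CPM).

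In B cell-like cells, where 26.4% of all genes passed, 3 members passed by edgeR's quasi-likelihood test. Lrp1 was lower than in the mean of the other blood classes by −3.83 ± 0.86 (edgeR adjusted p = 0.00392) and Lrp8 by −2.37 ± 0.60 (edgeR adjusted p = 0.00727). Neither low level was particular to B cell-like cells. Their Lrp8 was at 3.11 and 1.55 CPM, and that of erythroid-like cells at 2.15 and 1.59 CPM. The counting intervals of these classes overlapped for Lrp1 and for Lrp8 in both libraries. Lrp6 was higher by 0.91 ± 0.31 (edgeR adjusted p = 0.0386), at 26.7 and 34.9 CPM against 6.97 to 22.8 CPM in the other blood classes, and no library of another blood class reached it. This call was lost without the filter on low counts (edgeR adjusted p = 0.0630) and at a clustering resolution of 1.2 (0.0518). The block added lower Lrpap1 (edgeR adjusted p = 0.0214, against 0.0517) and higher Lrp10 (0.70, edgeR adjusted p = 0.0350, against 0.137). In neutrophil-like cells 1 member passed beside 13.1% of all genes, Lrp5, higher by 1.98 ± 0.62 (edgeR adjusted p = 0.0374) at 4.99 and 4.61 CPM. With the block, Lrp4 rose there too (1.69, edgeR adjusted p = 0.0228, against 0.220). In erythroid-like cells 1 member passed beside 34.3% of all genes, Lrp5, lower by −3.06 ± 0.90 (edgeR adjusted p = 0.0120) at 6 UMIs in library 1 and none in library 2. DESeq2 called 5 members there, with Lrp4, Lrp6, Lrp8, and Lrp10 also lower. The share of all genes that DESeq2 called is not given, here or for the other classes, so this count cannot be set against a background. The block added Lrp4 (−2.01, edgeR adjusted p = 0.0270, against 0.0800) and Lrp8 (−1.62, edgeR adjusted p = 0.0113, against 0.0532).

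In tenocyte-like cells, where 4.99% of all genes passed, 0 of the 9 members passed in edgeR's fit, 2 had an unadjusted p under 0.05 (Vldlr and Lrp8), and DESeq2 called 1 (Vldlr, adjusted p = 0.0029). Vldlr, at 22.3 and 8.06 CPM, was lower by −2.13 ± 0.68 (edgeR adjusted p = 0.0769) and passed with the block (−2.14, edgeR adjusted p = 0.0300). In chondrocyte-like cells the block added lower Lrp4 (−2.78, edgeR adjusted p = 0.00388, against 0.0749), which stood at 1.10 and 3.24 CPM there. Without the tenocyte-like class the model also called lower Lrp4 in chondrocyte-like (−3.08) and erythroid-like cells (−3.03), lower Lrpap1 in B cell-like cells (−1.20), lower Lrp8 in erythroid-like cells (−1.80), and higher Lrpap1 in monocyte/macrophage-like cells (1.18), with edgeR adjusted p of 0.0129 to 0.0452. Without the block, the members passed 6 of 45 times over the 5 stromal classes, beside 4.99% to 15.0% of all genes. They passed 9 of 36 times over the 4 blood classes, beside 13.1% to 34.3%, within the range of that background. With the block these counts were 11 and 15, but the shares of all genes in that fit are not given here.

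In stroma against blood, 29.3% of all genes were higher in stroma and 30.4% lower, which is the background for the lists that follow. Of 14 listed Lrp1 ligands 12 were tested, and 9 were higher in stroma and none lower, with a median log2 difference of 4.67 (0.00 over all genes). Timp3, an inhibitor of matrix metalloproteases, was higher by 9.48 ± 0.63 (edgeR adjusted p = 1.14e-09) and Thbs2, a thrombospondin of the matrix, by 9.25 ± 0.70 (edgeR adjusted p = 3.31e-08). In P-SSC-like cells 4 of the 12 ligands rose (Plau, Plat, Lpl, and Timp3, the first 3 named after their values were seen) and 1 fell, beside 985 and 244 of 13604 genes. Lpl rose more in Lepr+ stromal-like cells (5.98, edgeR adjusted p = 4.83e-06) than in P-SSC-like cells (2.03). Plat also rose in tenocyte-like cells (2.97, edgeR adjusted p = 0.0170, against 2.51 in P-SSC-like cells). Plau and Plat encode the urokinase and tissue plasminogen activators and Lpl lipoprotein lipase. Mmp13, an interstitial collagenase, was the ligand that fell, by −7.12 ± 1.44 (edgeR adjusted p = 0.00292). It was at 3.80 and 0.363 CPM in P-SSC-like cells against 1888 and 5074 CPM in Lepr+ stromal-like cells.

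Of the 5 ligands of Vldlr and Lrp8, 2 were higher in stroma (Clu and Thbs1) and 1 lower. Clu, which encodes clusterin, was higher by 5.47 ± 0.75 (edgeR adjusted p = 3.93e-06). Reln, the classical ligand of both receptors, was lower in stroma by −3.42 ± 0.89 (edgeR adjusted p = 0.00289), with 19.3 and 16.9 CPM in B cell-like cells and none in P-SSC-like or Lepr+ stromal-like cells. Selenop, the selenium carrier, was higher in P-SSC-like cells by 2.29 ± 0.49 (edgeR adjusted p = 0.00504). It was also called higher in tenocyte-like (2.18, edgeR adjusted p = 0.0138) and Lepr+ stromal-like cells (1.73, edgeR adjusted p = 0.0493). Among related genes outside the 9 members, Lrp3 was read in stromal classes at 1.62 to 41.8 CPM and in no blood class (7.26 ± 0.54, edgeR adjusted p = 1.81e-08, a fitted size and no bound), and it was higher in P-SSC-like cells within stroma by 2.34 ± 0.45 (edgeR adjusted p = 0.00332). Sorl1, a sorting receptor, was lower in stroma by −3.27 ± 0.48 (edgeR adjusted p = 9.50e-06), with 188 and 83.8 CPM in neutrophil-like cells.

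Of the 14 genes listed for Lrp4, Lrp5, and Lrp6 and for Wnt signaling, 10 were tested, and 6 were higher in stroma and none lower (median 4.13). The other 4 had no usable error in this comparison (SE of 8071 to 15490), so they were not shown to be alike. Their fitted sizes enter the median. Within stroma 3 of the 10 tested genes rose (Dkk2, Rspo2, and Wnt10b) and 1 fell (Wnt4) in P-SSC-like cells, both Wnt genes being named after their values were seen. Dkk2, a secreted ligand of Lrp5 and Lrp6 that blocks Wnt signaling, was higher there by 6.25 ± 0.60 (edgeR adjusted p = 3.71e-05), at 95.0 and 79.6 CPM against at most 7.49 CPM in the other tested stromal classes. Rspo2, an R-spondin that enhances Wnt signaling, was higher by 5.71 ± 1.34 (edgeR adjusted p = 0.0189), though the Lepr+ stromal-like cells of library 1 had 77.8 CPM against 68.4 CPM in P-SSC-like cells of that library. Of 14 tested Frizzled receptors and Wnt feedback genes (16 listed), 11 were higher in stroma and none lower (median 3.52), with Fzd2 at 8.66 ± 0.60 (edgeR adjusted p = 7.84e-08). Fzd9 (SE 2588) and Lgr6 (SE 10540, named after its value was seen) had no usable error in that comparison. Of the Frizzled and feedback genes, 2 rose in P-SSC-like cells, Fzd4 and Fzd6, named after their values were seen. Fzd9 fell (−8.05 ± 2.00, edgeR adjusted p = 0.0122), which had no UMI in P-SSC-like cells, so its fitted size is no bound. Of 10 tested adaptors, chaperones, and turnover genes, 6 were higher in stroma and 1 lower (median 0.82). The lower one, named after its value was seen, was Mylip, a ubiquitin ligase. Among the others, Gulp1, an engulfment adaptor that binds the tail of Lrp1, was higher by 7.54 ± 0.61 (edgeR adjusted p = 3.94e-08) and Dab2, an endocytic adaptor, by 4.86 ± 0.49 (edgeR adjusted p = 2.42e-07).

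The genes whose profile over the 20 sums was most like that of Lrp1 were Fn1, which encodes fibronectin (r = 0.966), Emp1 (0.962), Cd302 (0.959), Fcgrt (0.954), and Cdc42bpb (0.953). Fn1 was at 6057 and 3837 CPM in P-SSC-like cells and at 1.84 and 5.55 CPM in B cell-like cells. For Vldlr the most alike were Gxylt2 (0.909) and Ptprd (0.906), for Lrp4 Arhgef26 (0.953) and 4833422C13Rik (0.946), for Lrp5 Ptprz1 (0.865) and Pald1 (0.863), and for Lrp6 Sbf2 (0.941) and Arhgap35 (0.932). For Lrp10 they were Map3k2 (0.938) and Lnpep (0.935), and for Lrpap1 Tspan31 (0.942) and Itm2c (0.922). Lrp8 and Lrp12 had a mean level under 10 CPM and were not searched.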

How the data were processed

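Periosteal cells were measured by 10x Chromium 3′ scRNA-Seq in 2 libraries of 1 condition. The authors counted reads with Cell Ranger (version 6.1.2 and genome build mm10 per the submitters' processing notes) and deposited UMI counts per gene and barcode, neither normalized nor pooled. The methods name a human genome, so the annotation behind the counts is not given in the sources used here. The feature list also held EGFP, tdTomato, and tdTomato-WPRE. Gene positions are from GENCODE M21 (GRCm38, the assembly of mm10).

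As in the methods, cells were removed below 500 genes or 500 UMIs or above 10% mitochondrial UMIs. They were integrated by canonical correlation analysis (Seurat 5.3.0, R 4.3.3) with 3000 variable genes, 30 dimensions, and 15 principal components, clustered at resolution 0.8, and the stromal cells were integrated and clustered again. Members and listed genes stayed out of the variable genes. A cluster was named when at least 3 markers of a class had a log2 fold of at least 1 (10 CPM added) over the other cells of its clustering step. Stromal clusters were thus set against the other cells of the stromal step. Each such marker also needed a UMI in at least 20% of the cluster's cells. Clusters stayed unnamed where markers of another class led them, or at low depth with no marker of the class leading. Clusters of mixed blood and stromal markers were left unnamed. Scrublet (scanpy 1.11.5) called 129 doublets in library 1 (2.06%) and 1 in library 2 (0.0346%), so it had not worked there, and no doublets were removed.

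UMIs were summed per library and class. A minimum of 10 cells per library left 10 classes and thus 20 sums for 1 model (edgeR 4.0.16, filterByExpr, TMM, quasi-likelihood test, Benjamini-Hochberg adjustment over 13604 genes, threshold 0.05). The script was tested on simulated data. The SE given with edgeR log2 differences is their size over the square root of the test's F value. It was not taken from the fit itself and is no measure of precision where the difference is near 0. Adjusted p-values measure the spread between 2 libraries whose animals are not given. The libraries differed in reporter transcripts (EGFP at 0 UMIs in library 1 and 6837 in library 2). Technical spread and differences between animals therefore cannot be told apart in it. Sums with the same number share a library, but the main model did not pair them and only the library block did. Deviations of the sums from the class means correlated at 0.0411 to 0.461 over 45 pairs of classes (median 0.172, 37 over 0.1). Alternatives were other size factors, no filter, DESeq2 1.42.0, the library block, other clusterings, doublet removal, and models without single classes. The models without a class and the removal of the 5% of cells with the highest Scrublet scores were added after seeing the data. Poisson and binomial intervals are exact at 95% and cover counting error only, and a count of 0 allows up to 3 counts.

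The members and gene lists were chosen with earlier results of these data known. Named genes are all members, up to 4 genes of each list with the largest significant change in stroma or P-SSC-like cells, the genes most like a member, Anpep, Prrx1, Col1a1, and cluster-leading genes. Other names are marked where they appear. The list of other family genes is not reported here as a whole.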

Additional observations from a re-analysis of the deposited data

Results flagged for a closer look

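The 4422 barcodes that failed the filters on cells, 3656 in library 1 and 766 in library 2, were used in no comparison, yet they held UMIs of every member above the limit of 3 counts that a count of 0 allows. Over both libraries they held 140 UMIs of Lrp1, 51 of Vldlr, 43 of Lrp4, 24 of Lrp5, 53 of Lrp6, 8 of Lrp8, 86 of Lrp10, 5 of Lrp12, and 98 of Lrpap1. For Lrp1 this was 7.31 CPM of the removed barcodes of library 1 and 29.7 CPM of those of library 2, and for Lrp10 7.43 and 8.20 CPM.

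Reporter transcripts were counted in libraries labelled as wild type, above the same limit. In the kept cells, EGFP had 6837 UMIs in library 2, and tdTomato had 1482 in library 1 and 4627 in library 2. EGFP was found in 5.88% of the cells of library 2 and tdTomato in 16.4% and 29.2% of the cells of libraries 1 and 2.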

How the results depend on the processing

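Of 23 calls of members, 19 to 23 passed under each alternative that tested them, and all that had a value kept their direction, each library alone included, where no test could be made. Stromal against blood, 8 members passed under every alternative except the one that counted skeletal muscle-like cells as stroma, where 4 did. That class had no UMI of Lrp1, Lrp4, or Lrp12, whose fits then had no usable error, and the adjusted p of Lrpap1 was 0.0883. In the stromal classes, members passed 6 times, 10 times with DESeq2, and 11 times with the replicate block. In the blood classes they passed 9 times, 15 times with DESeq2, 15 times with the replicate block, 14 times without integration, 14 times without Scrublet's doublets, and 15 times without the highest Scrublet scores. The cause of these shifts was not tested, and the shares of all genes that passed under these alternatives are not given. The pairing by library changed no call other than those given with the results. Tenocyte-like cells, and Lepr+ stromal-like cells in some clusterings, fell under 10 cells in a library and then gave no value. Depth limits the low members most. The 20 P-SSC-like cells of library 1 had no UMI of Lrp4 or Lrp8, which allows up to 11.4 CPM, above the 6.18 and 0.363 CPM of library 2.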

Other observations

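Stromal clusters without a name also carried the family. A cluster with Tcim and Ddit4l among its leading genes (18 and 49 cells) had 132 and 128 CPM of Lrp1 and 73.6 and 43.8 CPM of Vldlr. One led by Col10a1 and Mgp, genes of hypertrophic cartilage (69 and 74 cells), had 74.4 and 93.5 CPM of Lrp1. Smooth muscle-like cells, too few to test with 4 and 21 cells, had 295 and 177 CPM of Lrp1, the first from 7 UMIs. Stromal and muscle clusters held 6.27% of all UMIs in library 1 and 45.7% in library 2. They held 67.0% and 96.0% of those of Lrp1, 91.1% and 94.9% of those of Vldlr, and 3.36% and 45.3% of those of Lrp8. The stromal share of each was thus larger in library 2, with the smallest change for Vldlr. Whether this followed the number of stromal cells was not tested.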
